A study of Mus musculus with 12 samples.

Results

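The nuclear genes for respiratory complexes II, III and IV and for ATP synthase (complex V) were examined in mouse blastocysts whose p38-MAPK activity had been blocked for 4, 7 or 10 h. The genes were taken by name: every row of the expression table whose symbol begins with Sdha, Sdhb, Sdhc, Sdhd, Uqcr, Cox4, Cox5, Cox6, Cox7, Cox8 or Atp5, and Cyc1, without pseudogene names and without the assembly factors of complex II. This gave 48 of the 34245 rows, of which 4 belong to complex II, 9 to complex III, 18 to complex IV and 17 to ATP synthase. Embryos came from superovulated F1 (C57Bl6 x CBA/W) females mated with F1 males, were taken as 2-cell embryos and cultured in KSOM with amino acids until E3.5. Pools of 30 blastocysts were then cultured with DMSO, the vehicle of the inhibitor (control), or with 20 µM of SB220025, an inhibitor of p38-MAPK (p38-MAPKi), until E3.5 + 4 h, + 7 h or + 10 h. Each of the 6 groups had 2 libraries, 12 in all, and no source used here says whether the pools of a group were collected on different days, so the p-values measure the spread between these pools. A pool holds whole embryos, so that a change in the number of cells of a type and a change of the RNA in each cell cannot be told apart.

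Mitochondrial respiration passes electrons from NADH and succinate to oxygen along a chain of protein complexes in the inner membrane. Complex II oxidises succinate and is also an enzyme of the tricarboxylic acid cycle, complex III hands the electrons to cytochrome c, complex IV (cytochrome c oxidase) reduces oxygen, and ATP synthase uses the resulting proton gradient to make ATP. All subunits of complex II come from nuclear genes, while the cores of the others also need subunits that the mitochondrial genome encodes. In the preimplantation embryo oxidative phosphorylation rises as the blastocyst forms, and the trophectoderm, which pumps ions and water into the cavity, is a large consumer of its ATP.

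The libraries held between 11242313 and 24457312 reads. The first p38-MAPKi library of E3.5 + 7 h was the shallowest, and it had reads on 14027 genes where the others had reads on 16369 to 17671. Replicates of the p38-MAPKi group at E3.5 + 7 h correlated with r = 0.924 across genes, and those of the other groups with r between 0.969 and 0.981. Markers of blastocyst cells were summed as RPKM (reads divided by exon length in kilobases and by library size). Over the 12 libraries the sum was 1741 to 2560 RPKM for 8 trophectoderm genes, 533 to 683 RPKM for 6 epiblast genes and 116 to 189 RPKM for 6 primitive endoderm genes. Single markers differed widely, from a mean of 1169 RPKM for Krt18 to 0.422 RPKM for Elf5 and 0.155 RPKM for Sox7. Not every marker was found in every library, since the lowest read count of Sox7 was 0. Genes of cells that could be carried along summed to at most 1.27 RPKM for 6 cumulus or granulosa genes, 1.29 RPKM for 3 oviduct genes and 1.08 RPKM for 4 blood genes, and Ptx3, Tnfaip6, Has2, Fshr, Ptprc and Hbb-bt had 0 reads in every library. The 13 subunits encoded by the mitochondrial genome also had 0 reads in every library, so the products of that genome were not measured here.

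The subunit mRNAs ranged from not detected to among the abundant messages of the blastocyst. Over the 12 libraries the highest mean levels were those of Cox6a1 with 448 RPKM, Atp5a1 with 444 RPKM, Cox4i1 with 444 RPKM and Atp5b with 435 RPKM. In complex III the highest was Uqcr10 with 294 RPKM, followed by Cyc1 with 204 RPKM and Uqcrfs1 with 168 RPKM. The genes of complex II were lower and close to each other, from 29.3 RPKM for Sdhc to 63.8 RPKM for Sdhd. Tissue variants of complex IV were at the bottom. Cox4i2, known from lung, reached at most 0.903 RPKM, and the heart and muscle variant Cox6a2 at most 0.344 RPKM. The testis variants Cox7b2 and Cox8c reached at most 1.31 and 1.21 RPKM in any library. Cox8b, a heart and muscle variant, had 0 reads in every library. Cox7a1 and Cox6b2, known from muscle and testis, were nevertheless present, with means of 17.6 and 16.9 RPKM. Of the 3 genes for the c ring of ATP synthase, which encode the same mature protein, Atp5g3 had 202 RPKM, Atp5g1 14.0 RPKM and Atp5g2 13.5 RPKM. RPKM divides by the length of all annotated exons of a gene, 6443 bases for Atp5l whose coding sequence has 309 bases, so that the level of such a gene is low for a given number of reads.

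**Figure D1:**
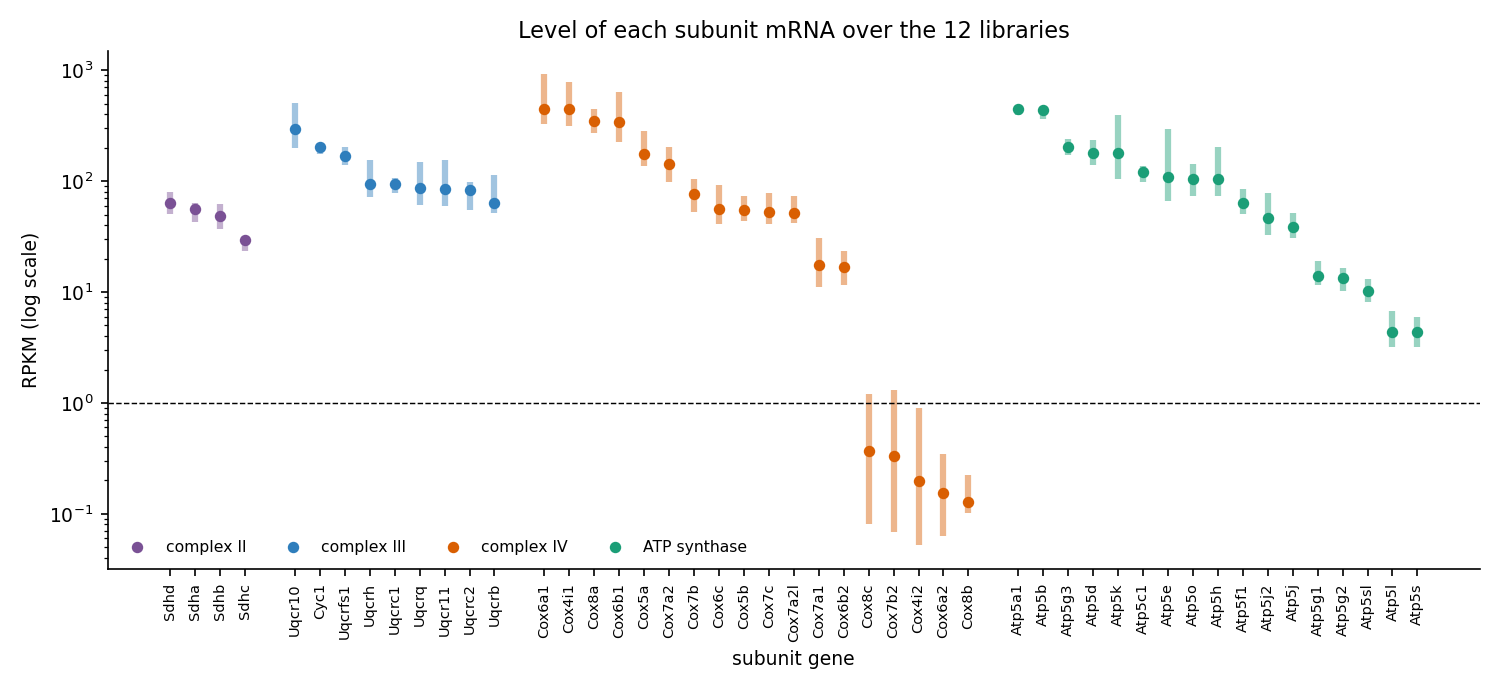
RPKM on a log scale (y axis) for each of the 48 genes (x axis), grouped by complex and ordered by mean. Points are means over the 12 libraries, bars run from the lowest to the highest library, and the dashed line marks 1 RPKM (a library with 0 reads is drawn at the deposited value of 0.9 of a read). In all, 43 genes lie above it, and Cox8c, Cox7b2, Cox4i2, Cox6a2 and Cox8b have means below it.

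The 43 genes above this level passed the filter (1 RPKM or more in 2 or more libraries of a time point) at all times, and the 5 tissue variants did not. All members of complexes II and III and of ATP synthase were therefore tested, and 13 of the 18 of complex IV. The first question was in which complexes, and when, the level under p38-MAPKi differed from that of the control.

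At E3.5 + 7 h the subunit mRNAs of complexes III and IV and of ATP synthase were mostly higher under p38-MAPKi, and the median of complex II was near 0. The median log2 fold change was 0.69 for complex IV, 0.61 for complex III, 0.43 for ATP synthase and 0.03 for complex II, and it was -0.14 over all 10940 genes tested. Over the 43 members the median was 0.48, or 1.39-fold, and 37 lay above 0, against 40.1% of all genes. With limma and Benjamini-Hochberg adjustment over all genes, 2 members rose, Atp5e and Atp5k of ATP synthase, and 0 fell, while 0.932% of all genes rose. Without adjustment 25 of the 43 members had a limma p under 0.05 and all of these were higher, against 10.7% of all genes that were higher at this level. Of these 25, 11 of 13 tested genes belong to complex IV, 5 of 9 to complex III, 9 of 17 to ATP synthase and 0 of 4 to complex II. Both p38-MAPKi libraries lay above both controls for 31 members, against 23.0% of all genes, and below both for 3 members, Sdha, Uqcrc2 and Atp5a1, against 38.7%. Scaling each library to its own median moved the median of all genes from -0.14 to 0.05, that of the members to 0.67 and that of complex II to 0.22, with 3 of its 4 genes above 0. Limma then called 0 members and 0 of all genes after adjustment.

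**Figure D2:**
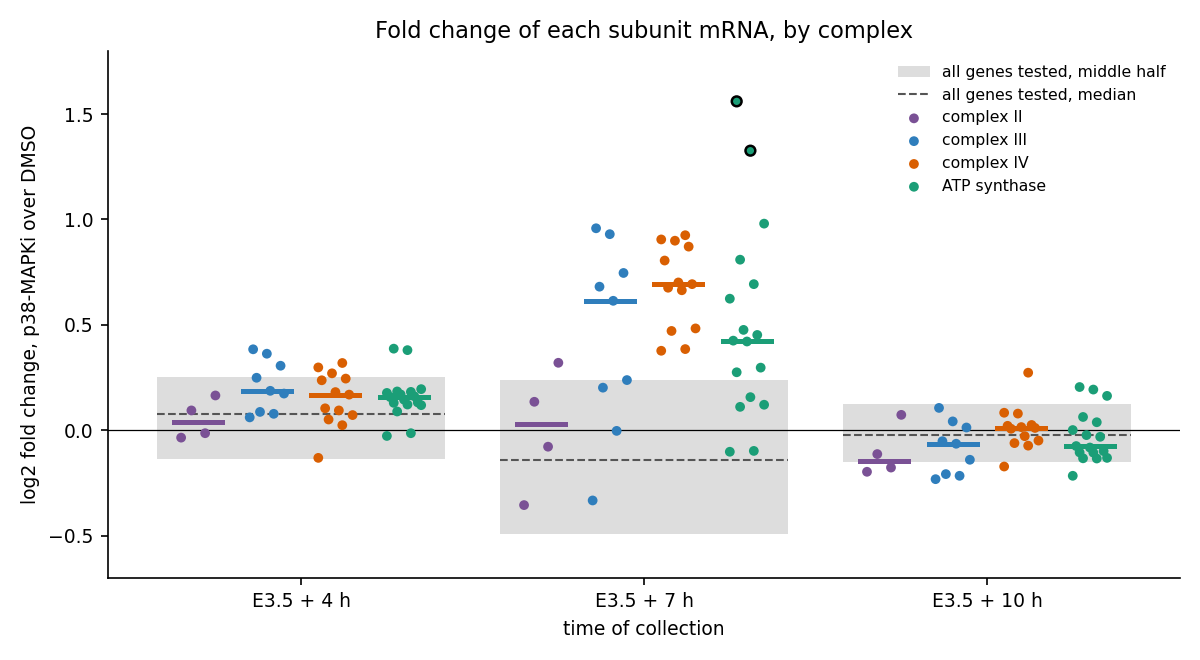
log2 fold change of p38-MAPKi over DMSO (y axis) at each time (x axis) for the 43 genes tested, coloured by complex. Coloured lines are medians of the complexes, the grey box and the dashed line give the quartiles and the median of all genes tested, and points ringed in black, Atp5e and Atp5k, have an adjusted p under 0.05; at 7 h all 13 genes of complex IV lie above 0.

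The share of a library's reads that fell on these genes shows the same in single libraries. At E3.5 + 7 h they took 1.07% and 0.868% of the reads of the control libraries and 1.30% and 1.21% of those of the p38-MAPKi libraries, and in the other 8 libraries between 0.885% and 1.13%. The 2 controls at this time stood apart from each other, with medians 0.22 above and 0.22 below their mean on the log2 scale, whereas both p38-MAPKi libraries lay 0.47 to 0.48 above it. For 23 of the 43 members both p38-MAPKi libraries at E3.5 + 7 h were above all the other 10 libraries of the series, 11 of them in complex IV, 9 in ATP synthase, 3 in complex III and 0 in complex II. This was so for 9.84% of all genes tested. Of the 23 members, 20 are among the 27 with a coding sequence under 500 bases, and 32.5% of all tested genes of that size met the same condition.

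**Figure D3:**
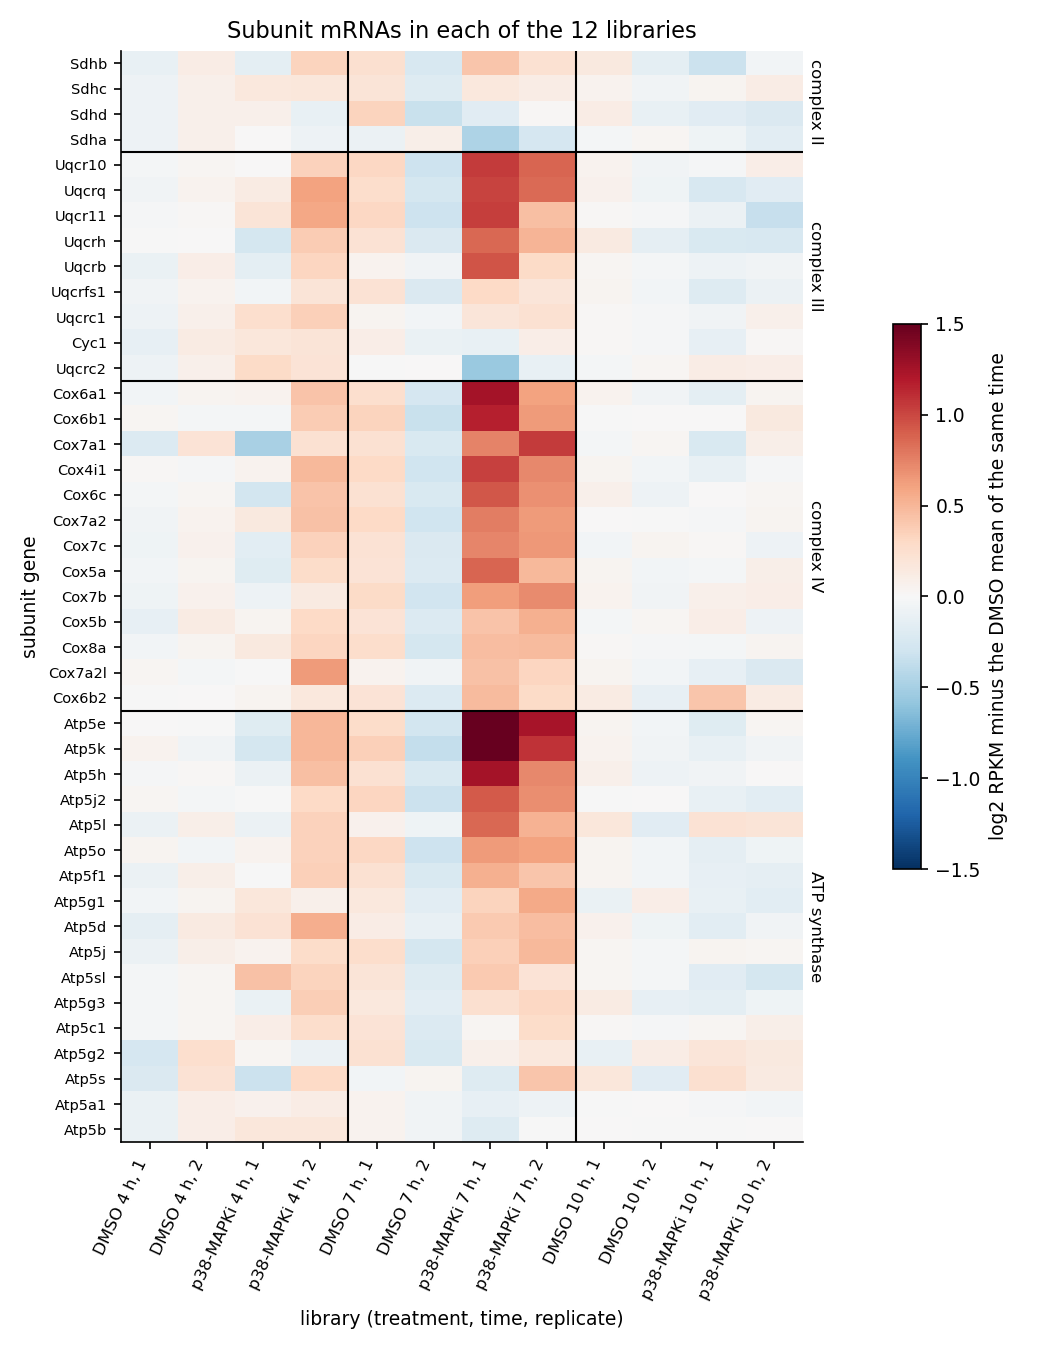
Colour gives the log2 RPKM of a gene minus the mean of the 2 DMSO libraries of the same time, for 43 genes (rows, by complex and by fold change at 7 h) and 12 libraries (columns); the scale ends at 1.5 in each direction. Both p38-MAPKi columns at 7 h are red over most of complexes III, IV and V, the second p38-MAPKi column at 4 h is red more weakly, and the 10 h columns are pale.

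Promoters are shown for Uqcr10, Cox6a1 and Atp5e, the genes with the largest difference at E3.5 + 7 h in complexes III, IV and V. RefSeq promoters on GRCm38.p6 were matched to 37 of the 48 members, 3 of them through synonyms. Each sequence is the 250 bases before the RefSeq start, of which the last 23 for Cox6a1 and the last 4 for Atp5e lie inside the gene as GENCODE draws it, read 5′ to 3′ on the strand of the gene: chr11:4704345-4704594 (minus strand) for Uqcr10, chr5:115348959-115349208 (minus strand) for Cox6a1 and chr2:174464102-174464351 (minus strand) for Atp5e. Capitals mark, on either strand, matches to the short site TGCGCA and the core GCATGCGC of nuclear respiratory factor 1, a regulator of respiratory genes, and to CGGAAG, a core bound by ETS factors such as GABP. The core GCATGCGC was added to the search after promoter sequences had been read and matches on both strands, overlapping, in the Cox6a1 window.
Uqcr10: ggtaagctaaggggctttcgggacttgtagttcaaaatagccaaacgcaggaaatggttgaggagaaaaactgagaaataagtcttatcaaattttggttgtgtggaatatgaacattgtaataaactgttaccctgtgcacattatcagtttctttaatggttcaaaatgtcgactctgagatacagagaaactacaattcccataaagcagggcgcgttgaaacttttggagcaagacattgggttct
Cox6a1: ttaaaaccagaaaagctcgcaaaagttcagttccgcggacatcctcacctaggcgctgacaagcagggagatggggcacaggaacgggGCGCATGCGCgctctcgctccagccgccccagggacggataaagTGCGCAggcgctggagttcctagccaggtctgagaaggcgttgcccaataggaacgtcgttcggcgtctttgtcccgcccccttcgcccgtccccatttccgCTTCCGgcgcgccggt
Atp5e: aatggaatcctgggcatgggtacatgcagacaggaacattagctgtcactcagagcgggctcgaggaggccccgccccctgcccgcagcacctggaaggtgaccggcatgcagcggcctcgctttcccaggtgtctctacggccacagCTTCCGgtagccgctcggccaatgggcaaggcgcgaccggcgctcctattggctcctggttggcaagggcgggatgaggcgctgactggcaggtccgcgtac

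The Cox6a1 window holds all 3 motifs, the Atp5e window holds the ETS core only, and the Uqcr10 window holds none of them. The G and C content of the windows was 62.8% for Cox6a1, 65.6% for Atp5e and 38.8% for Uqcr10. Across the 37 promoters of members, CGGAAG was found in 13, TGCGCA in 7, GCATGCGC in 5 and ATGGCG, a core of YY1 sites, in 3. Of 27025 promoters of the same length, 1 for each symbol, 13.8% held CGGAAG, 6.66% TGCGCA, 2.32% GCATGCGC and 5.77% ATGGCG. These are matches of letters and not sites of binding.

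In complex II no gene had a limma p under 0.05 between p38-MAPKi and control at any time in the values as deposited. At E3.5 + 7 h 1 of the 4 was higher at this level after scaling to the median, and 1 without the first control library, when the median of the complex was 0.29. Sdha, the flavoprotein that oxidises succinate, had 56.0 and 63.2 RPKM in the controls of E3.5 + 7 h and 43.1 and 50.1 RPKM under p38-MAPKi. The groups did not overlap, and the means were 59.6 ± 5.1 and 46.6 ± 4.9 RPKM (SD, n = 2 each). The log2 fold change was -0.36 ± 0.18 (SE) with an adjusted p of 0.218 in limma. Sdhb, the iron-sulfur subunit, had 55.4 and 40.0 RPKM in the controls and 62.7 and 55.0 RPKM under p38-MAPKi, and the groups overlapped. Its log2 fold change of 0.32 ± 0.20 had an adjusted p of 0.319 in limma. The membrane anchors Sdhc and Sdhd had log2 fold changes of 0.14 and -0.08, and for both the control libraries spanned the p38-MAPKi libraries.

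In complex III 5 of the 9 genes were higher at E3.5 + 7 h with an unadjusted limma p under 0.05, none of them after adjustment, and these 5 encode small subunits without a redox centre. Uqcr10, the highest in RPKM, had 308 and 199 RPKM in the controls and 512 and 452 RPKM under p38-MAPKi. Both p38-MAPKi libraries were thus above both controls, with means of 253 ± 77 and 482 ± 42 RPKM (SD, n = 2 each). The log2 fold change was 0.96 ± 0.23 (1.94-fold), with an adjusted p of 0.0564 in limma. Uqcrq (0.93), Uqcr11 (0.75), Uqcrh (0.68) and Uqcrb (0.61) followed in log2 fold change, all with an unadjusted limma p under 0.05 and without overlap of the groups. Cyc1, cytochrome c1, had a log2 fold change of -0.003, the Rieske protein gene Uqcrfs1 0.24 and the core gene Uqcrc1 0.20, none with a p under 0.05. Uqcrc1 had 91.2 and 86.3 RPKM in the controls and 100.5 and 103.7 RPKM under p38-MAPKi, so that its groups did not overlap either. With the trend of each library on coding length removed (an alternative described with the lengths), its log2 fold change was 0.40 with an unadjusted limma p of 0.0174, near those of Uqcrq (0.44) and Uqcr10 (0.40) and above those of Uqcrb (0.22), Uqcrh (0.21) and Uqcr11 (0.16). The other core gene, Uqcrc2, had 80.9 and 81.7 RPKM in the controls and 55.3 and 75.3 RPKM under p38-MAPKi, and its log2 fold change of -0.33 ± 0.19 had an adjusted p of 0.284 in limma.

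Complex IV had the narrowest range of the 4 complexes. All 13 tested genes had both p38-MAPKi libraries of E3.5 + 7 h above both controls, and their log2 fold changes lay between 0.38 and 0.93. Of these, 12 have a coding sequence under 500 bases, a size at which 57.8% of all genes were so placed. With the trend on coding length removed, 10 lay above 0, against 51.3% of all genes. In that setting 2 were higher at an unadjusted limma p under 0.05, against 12.3%. Cox6b2 (-0.095), Cox8a (-0.066) and Cox7a2l (-0.013) then lay below 0. Cox6a1, a small subunit, had 462 and 326 RPKM in the controls and 921 and 590 RPKM under p38-MAPKi. The means were 394 ± 96 and 755 ± 234 RPKM (SD, n = 2 each), a 1.90-fold difference with a log2 value of 0.93 ± 0.26 and an adjusted p of 0.0715 in limma. Cox4i1, with 507 bases the longest coding sequence among the tested genes of complex IV, had 477 and 314 RPKM against 786 and 637 RPKM, and its log2 fold change of 0.87 ± 0.24 had an adjusted p of 0.0679 in limma. Cox6b1 (0.91), Cox7a1 (0.90) and Cox6c (0.81) were close to these in log2 fold change, while Cox8a (0.47), Cox7a2l (0.39) and Cox6b2 (0.38) were the lowest. Cox7a2l is the gene of a factor that joins complexes III and IV. Cox6b2, a testis variant, had 19.6 and 14.8 RPKM in the controls and 23.6 and 20.8 RPKM under p38-MAPKi, with an adjusted p of 0.250 in limma.

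ATP synthase held both the largest differences and subunits close to 0. Atp5e (ENSMUSG00000016252, chr2:174461072-174464105, minus strand) encodes the epsilon subunit at the foot of the central stalk. Its level was 96.0 and 65.7 RPKM in the controls of E3.5 + 7 h and 293 and 187 RPKM under p38-MAPKi. The p38-MAPKi libraries were the highest of the whole series, since the other 8 libraries lay between 68.2 and 124 RPKM. The means of 80.8 ± 21.4 and 240.0 ± 74.6 RPKM (SD, n = 2 each) gave a log2 fold change of 1.56 ± 0.26 (2.95-fold) and an adjusted p of 0.0456 in limma. Atp5k (ENSMUSG00000050856, chr5:108433244-108434448, minus strand) encodes subunit e in the membrane, where ATP synthases pair. It had 174 and 105 RPKM in the controls and 399 and 286 RPKM under p38-MAPKi, again above all other libraries. The log2 fold change was 1.33 ± 0.26 (2.51-fold), with an adjusted p of 0.0473 in limma. Without the second control of E3.5 + 7 h the adjusted p in limma was 0.242 for Atp5e and 0.281 for Atp5k, and without the shallow first p38-MAPKi library it was 0.0127 and 0.0408.

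The remaining genes of ATP synthase spanned from -0.10 to 0.98 in log2 fold change. Atp5h (subunit d of the peripheral stalk) had a log2 fold change of 0.98, Atp5j2 (subunit f) 0.81, Atp5l (subunit g) 0.69 and Atp5o (the stalk protein that confers oligomycin sensitivity) 0.62. The alpha and beta subunits did not share this in the values as deposited. Atp5b, the beta subunit that makes ATP, had 450 and 419 RPKM in the controls and 380 and 430 RPKM under p38-MAPKi, which overlap, and a log2 fold change of -0.10 ± 0.18 with an adjusted p of 0.738 in limma. Atp5a1, the alpha subunit, had 463 and 433 RPKM against 411 and 426 RPKM and a log2 fold change of -0.10 ± 0.18 with an adjusted p of 0.740 in limma. Both values turned positive, 0.09 and 0.10, when each library was scaled to its median, and lay at -0.54 and -0.56 after quantile normalization. With the trend of each library on coding length removed, Atp5b had 0.14 and Atp5a1 0.16, near the ATP synthase median of 0.18. In that setting Atp5h had 0.72, Atp5o 0.47, Atp5j2 0.34 and Atp5l 0.27. Atp5e and Atp5k then had 0.96 and 0.795, lower than as deposited. Atp5c1, the gamma subunit of the rotor, had 0.16 in the values as deposited and 0.14 with this trend removed. The c ring genes Atp5g1, Atp5g3 and Atp5g2 had 0.45, 0.28 and 0.12 as deposited. With the trend removed these c ring genes had 0.127, -0.037 and -0.178. Atp5s and Atp5sl match the names but are not structural subunits of the enzyme, and their mean levels were 4.34 and 10.3 RPKM. As deposited they had log2 fold changes of 0.11 ± 0.27 and 0.30 ± 0.21, with adjusted p of 0.807 and 0.372 in limma.

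**Figure D4:**
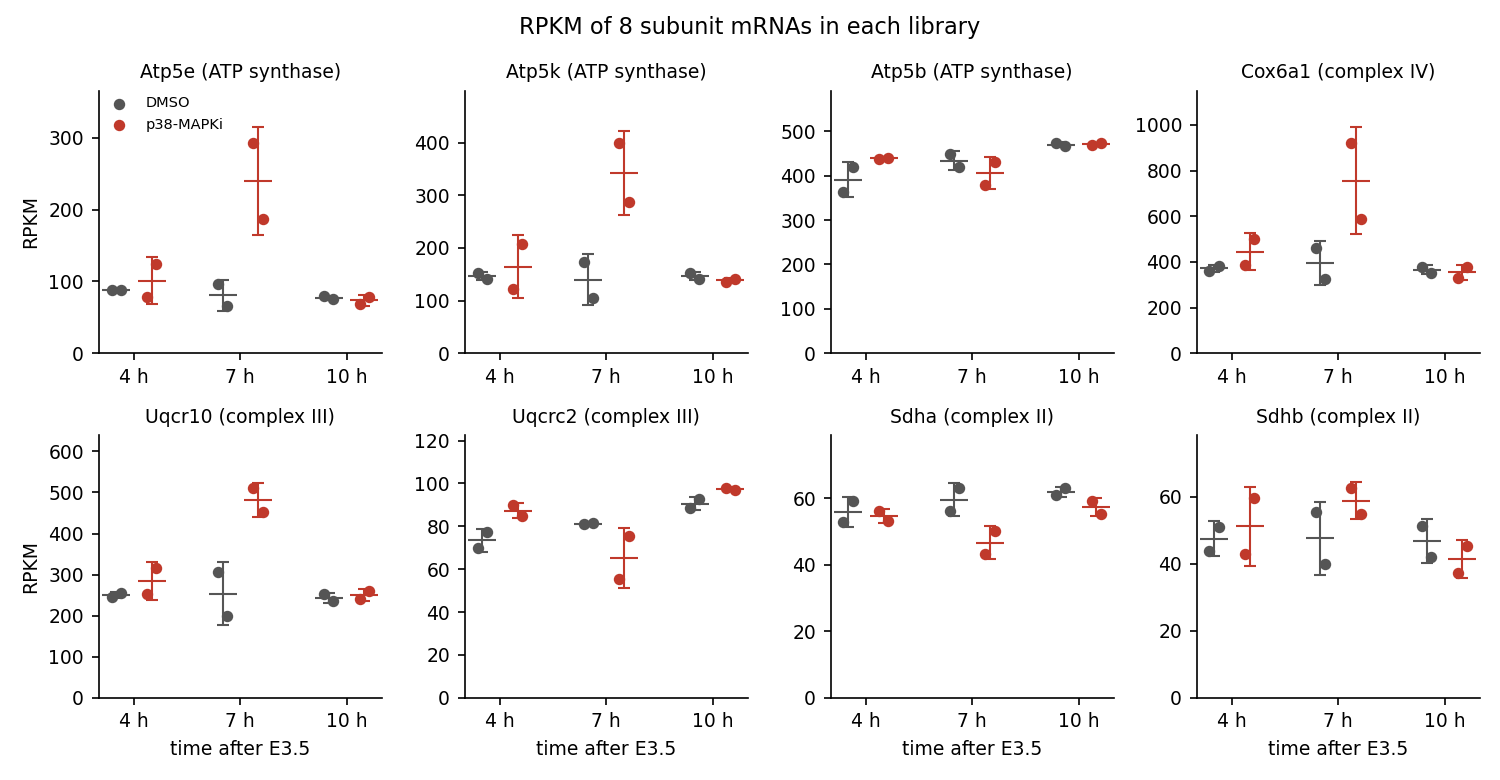
RPKM (y axis, from 0) in each library by time after E3.5 (x axis) for 8 genes; points are libraries, and the horizontal mark and bars are the mean and SD of the 2 libraries of a group. Atp5e, Atp5k, Cox6a1 and Uqcr10 have both p38-MAPKi points at 7 h above all others in their panel, whereas Atp5b, Uqcrc2, Sdha and Sdhb do not.

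The order of the fold changes at E3.5 + 7 h followed the length of the coding sequence. Across the 43 members Spearman's rho between coding length and log2 fold change was -0.756, a description over genes that share 4 libraries, and across 10394 genes with a coding length it was -0.55. Of the 27 members with a coding sequence under 500 bases, 21 had an unadjusted limma p under 0.05 and were higher, and 25 had both p38-MAPKi libraries above both controls. Among the 1100 tested genes of that size the shares were 39.7% and 57.8%, and 4.27% rose after adjustment. The median log2 fold change was 0.69 for these 27 members and 0.43 for all genes under 500 bases, and 0.18 for the 16 longer members and -0.20 for all longer genes. Within the short class the complexes lay close together, with medians of 0.75 for 5 genes of complex III, 0.69 for 12 genes of complex IV and 0.69 for 9 genes of ATP synthase, while Sdhd, the only gene of complex II in it with 477 bases, had -0.08. When the trend of each library on coding length was removed, an alternative chosen after the data had been seen, the member median became 0.19, that of complex II -0.07, complex III 0.21, complex IV 0.21 and ATP synthase 0.18. Of the members 10 were then higher at an unadjusted limma p under 0.05, against 12.3% of all genes. Above 0 lay 33 members, against 51.3% of all genes, and limma called 0 after adjustment, also over all genes. In bins of coding length 20 of the 27 short members and 11 of the 16 longer members lay above the median of all genes in their bin.

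**Figure D5:**
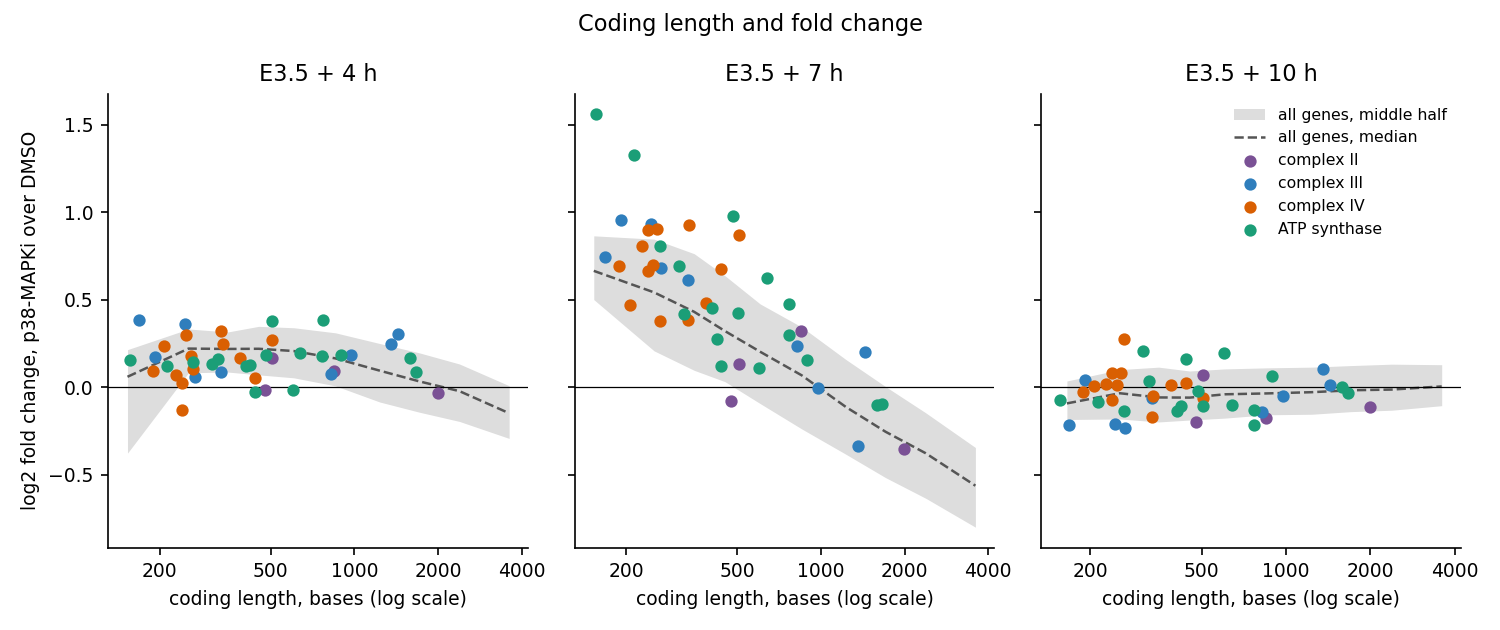
log2 fold change of p38-MAPKi over DMSO (y axis) against coding length in bases (x axis, log scale) at the 3 times; points are the 43 genes coloured by complex, and the grey band and dashed line give the quartiles and the median of all genes in bins of coding length. At 7 h the dashed line falls from 0.67 in the shortest bin to -0.56 in the longest, and of the 27 points under 500 bases 20 lie above the median of their bin, against 9 at 4 h and 16 at 10 h.

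At E3.5 + 4 h no member passed the test. With limma 0 of the 43 were called and 0 had an unadjusted p under 0.05, against 0.909% and 9.42% of all genes, and the smallest adjusted p of a member was 0.546, for Uqcr11. The median log2 fold change was 0.16 over the members and 0.08 over all genes, with 0.19 for complex III, 0.17 for complex IV, 0.16 for ATP synthase and 0.04 for complex II, and 38 members lay above 0, against 60.0% of all genes. This count was 24 without the second p38-MAPKi library, against 65.6% of all genes, and 19 and 18 with the trend on exon length or coding length removed, against 51.6% of all genes in both. Both p38-MAPKi libraries were above both controls for 17 members, against 26.8% of all genes, and below both for 0 members, against 13.7%. The 2 p38-MAPKi libraries differed: the second had a member median 0.33 above the control mean and the first 0.03. Atp5e, for example, had 88.6 and 87.9 RPKM in the controls and 77.8 and 124 RPKM under p38-MAPKi. Without the first p38-MAPKi library the member median was 0.33 and 12 members were higher at an unadjusted p under 0.05, against 11.9% of all genes, and 0 were called after adjustment.

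At E3.5 + 10 h the levels under p38-MAPKi and control lay close to each other. With limma 0 members were called, against 0.803% of all genes, and the smallest adjusted p was 0.180, for Uqcrq. Unadjusted, 4 members had a p under 0.05, and all of these, Uqcrh, Uqcrq, Cox7a2l and Atp5sl, were lower, with log2 fold changes from -0.17 to -0.23, against 11.6% of all genes that were lower at this level. Above 0 lay 18 members, against 45.7% of all genes. The median was -0.05 over the members and -0.02 over all genes, -0.15 for complex II, -0.06 for complex III, 0.01 for complex IV and -0.08 for ATP synthase. Atp5e had 79.5 and 75.1 RPKM in the controls and 68.2 and 79.0 RPKM under p38-MAPKi, and Cox6a1 379 and 353 RPKM against 331 and 377 RPKM. For both the groups overlapped. Libraries of this time also agreed best with each other, with a median SD between replicates of 0.086 and 0.089 on the log2 scale, against 0.16 and 0.21 at E3.5 + 7 h.

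Whether the effect of p38-MAPKi differed between times was asked of the interaction in 8 libraries. Between E3.5 + 7 h and + 10 h the interaction was above 0 for 6 members, against 59.7% of all genes, and 24 had an unadjusted limma p under 0.05, all of them lower, where 10.4% of all genes were lower at this level. Of these 24, 19 are among the 27 members with a coding sequence under 500 bases, where 35.3% of all genes of that size were lower. With the trend on coding length removed 10 members had an unadjusted limma p under 0.05. That count is given without direction or the share of all genes in the same setting, so it shows no excess over them. None of the 43 passed after adjustment in limma, and the smallest adjusted p was 0.0710, while 0.00877% of all genes passed. The median interaction was -0.56 over the members and 0.15 over all genes. For Atp5e it was -1.64 ± 0.33 with an adjusted p of 0.0710 in limma, and for Atp5b 0.10 ± 0.15 with an adjusted p of 0.693. Between E3.5 + 4 h and + 7 h the median interaction was 0.31 over the members and -0.22 over all genes, and 33 members lay above 0, against 29.7% of all genes. Unadjusted, 9 members had a p under 0.05, of which 8 were higher at + 7 h and Uqcrc2 was lower, against 1.99% of all genes that were higher and 4.84% that were lower. All 8 have a coding sequence under 500 bases, a size at which 9.71% of all genes were higher. The smallest adjusted p in limma was 0.661, and 0 members passed, where 0.00884% of all genes did.

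Without the inhibitor no member passed the test between E3.5 + 4 h and + 10 h. The control libraries of these times gave a median log2 difference of 0.02 over the members and 0.14 over all genes, and 0 members were called by limma against 0.471% of all genes. Unadjusted, 4 members had a p under 0.05, where 13.2% of all genes were higher and 2.05% lower at this level. Cox6b2, Uqcrc2 and Atp5b were higher at + 10 h, by 0.55, 0.30 and 0.27 on the log2 scale, and Cox7a1 was lower, with -0.51. The variants of complex IV thus had the largest values in both directions. Cox6b2 had 11.6 and 11.7 RPKM at + 4 h and 18.4 and 15.7 RPKM at + 10 h, and Cox7a1 16.3 and 21.6 RPKM and then 12.9 and 13.5 RPKM. The smallest adjusted p, 0.101 in limma, was that of Cox6b2.

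Other genes of the pathway were counted from lists. At E3.5 + 7 h complex I, which feeds the chain with electrons from NADH, had a median log2 fold change of 0.70 over 36 tested subunits, with 26 higher at an unadjusted p under 0.05, against 10.7% of all genes and 39.7% of those with a coding sequence under 500 bases. After adjustment 4 rose in limma, against 0.932% and 4.27%: Ndufa3 (1.25), Ndufa2 (1.22), Ndufb7 (1.04) and Ndufs5 (1.02). Of 5 further subunits or partners of complexes III to V, 0 were called, 4 were higher without adjustment and the median was 0.80; Usmg5, a small subunit of ATP synthase, had 1.07 and Cycs, cytochrome c, 0.42. Among 34 assembly factors 2 rose, Pet100 (1.39) and Cmc2 (1.01), both for complex IV, and the median was 0.27. Of 14 enzymes of the tricarboxylic acid cycle 1 fell, Ogdh (-0.94), against 1.2% of all genes, and the median was -0.03. Among 11 regulators of mitochondrial biogenesis 0 were called, and the median was -0.26, against -0.14 over all genes. Without adjustment 4 were lower, against 17.7% of all genes: Pprc1, a coactivator of nuclear respiratory factor 1 (-0.96), Polrmt (-0.78), Tfb1m (-0.69) and Yy1 (-0.48). Nrf1 had -0.26, Gabpa -0.25 and Tfam 0.20. The enzymes and regulators were not set against genes of like coding length. The median of all genes fell with that length, to -0.56 in the longest bin. Ppargc1a had 0 reads in every library. At E3.5 + 4 h and + 10 h 0 genes of these lists were called by limma, and the median of complex I was 0.23 and -0.02.

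Some markers of the cell types also differed at E3.5 + 7 h. The summed level of the primitive endoderm genes was 116 to 123 RPKM under p38-MAPKi and 174 to 189 RPKM in the controls. Of 5 tested genes 1 fell in limma after adjustment, Dab2 (-1.0), against 1.2% of all genes. The epiblast genes summed to 649 to 679 RPKM against 610 to 664 RPKM and the trophectoderm genes to 2069 to 2212 RPKM against 1815 to 2398 RPKM, with 0 of 6 and 0 of 7 tested genes called by limma. Most single genes of both lists lay below 0, 5 of the 6 epiblast genes with a median of -0.31 and 5 of the 7 trophectoderm genes with a median of -0.22, against a median of -0.14 over all genes. Klf4 (-0.82) and Esrrb (-0.61) of the epiblast and Gata3 (-0.68) and Cdx2 (-0.49) of the trophectoderm had an unadjusted limma p under 0.05. Of the primitive endoderm Gata6 (-0.465) did too, besides Dab2. At this level 17.7% of all genes were lower. Like the enzymes and regulators, the markers were not set against genes of like coding length. The abundant Pou5f1 (0.18), Krt8 (0.08) and Krt18 (0.16) lay above 0. Both p38-MAPKi libraries of this time also had the fewest genes with a read, 14027 and 16369. The part of cell types and of library quality in the differences of the subunit genes was not tested. Without the shallow first p38-MAPKi library the member median stayed at 0.48, against -0.061 over all genes. Without the second control the member median was 0.31, against -0.135 over all genes.

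Reads of some members cannot be placed with certainty. Of the members 27 share at least one stretch of 50 bases, the length of a read, with the transcript of another annotated gene. The share exceeded 20% of the stretches for Atp5o (41.1%), Atp5g2 (38.3%), Uqcrb (25.5%) and Cox7c (22.1%), and was 0% for Atp5e and Uqcr10, 0.603% for Atp5k and 9.16% for Cox6a1. Exons of 11 members, Cox4i1, Cox6c and Atp5a1 among them, overlap an exon of another gene on the opposite strand. The libraries were made with a kit that keeps the strand, but whether counting used it is not given in the sources used here.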

How the data were processed

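Messenger RNA of 12 pools of 30 blastocysts was enriched on oligo(dT) and sequenced as single reads of 50 bases, without spiked-in controls. According to the submitters' processing notes and the methods of the study, the authors trimmed reads with Trim Galore 0.4.1, mapped them to GRCm38 with HISAT2 2.0.5 and deposited log2 RPKM per gene from SeqMonk, with replicates kept apart. The strand option and the treatment of isoforms and of reads with several positions are not given in the sources used here. In the deposited values 0 reads appear as 0.9 of a read, and this floor gave the depth of each library. With exon lengths of GENCODE M21, or a search over lengths, whole reads (within 0.02 of a read) were recovered for 34239 rows (99.982%), including all members.

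Comparisons used limma 3.58.1 (lmFit, eBayes with trend) under R 4.3.3, with the deposited log2 RPKM left untransformed. The 4 libraries of each time were fitted for p38-MAPKi against control. Other fits were interactions in 8 libraries, and control at + 10 h against + 4 h. Genes needed at least 1 RPKM in at least 2 libraries of the comparison. Benjamini-Hochberg adjustment ran over all genes tested, with a threshold of 0.05. At + 4 h limma gave every gene the variance of the trend. Coding lengths are those of principal GENCODE transcripts. Members described singly were those called, those with the largest and smallest fold change at + 7 h and the highest RPKM of each complex, and tissue variants; other members are given by their values in order. The members and lists were chosen with earlier results of these data known. Figures were drawn with matplotlib 3.10.9. Alternatives covered the pseudocount, the filter, the trend, scaling, length, the libraries fitted, the replicate block, voom on recovered reads, and leaving out each library.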

Additional observations from a re-analysis of the deposited data

How the results depend on the processing

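At E3.5 + 7 h the number of members called by limma (2) was 7 with a pseudocount of 5 RPKM, 16 with at least 10 RPKM, 23 with 12 libraries in one fit and 17 with voom on recovered reads, where 5.91%, 18.6%, 23.6% and 15.8% of all genes were called, against 2.13%. It was 0 without a filter, without the trend, with median centring, with quantile normalization, and with the trend on exon length or on coding length removed; in these settings 0 of all genes were called too, apart from 12 with quantile normalization. Leaving out a library gave 0 to 16: 15 without the first and 0 without the second control, 3 without the first and 16 without the second p38-MAPKi library, where 3.62%, 0%, 5.42% and 27.4% of all genes were called. Atp5e and Atp5k were called in 9 of 16 alternatives, with adjusted p from 0.000213 to 0.242 and from 0.000947 to 0.281 in limma. For the interaction of + 10 h against + 7 h the count (0) was 5 with at least 10 RPKM, 9 with voom and 0 to 21 without a library (21 without the first control and 17 without the second p38-MAPKi library of + 7 h); for + 7 h against + 4 h it was 0 to 1, the 1 without the second p38-MAPKi library of + 7 h. For control + 10 h against + 4 h it was 2 with at least 10 RPKM and 0 to 3 without a library (1 without the first and 3 without the second control of + 4 h). At + 4 h and + 10 h it was 0 in every alternative run. Counts for the interactions and for the controls are given here without the share of all genes called in the same setting. They therefore show no excess of members over all genes. The cause of these shifts was not tested.

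With the trend on exon length removed, the median log2 fold change at + 4 h was -0.008 for the members. It was -0.088 for complex II, -0.008 for complex III and -0.022 for complex IV. At + 7 h it was 0.37 for the members and highest for ATP synthase, with 0.482. Complex IV had 0.425, complex III 0.334 and complex II 0.011. For complex III at + 10 h it was -0.029. With the trend on coding length removed, it was at + 4 h -0.031 for the members, -0.048 for complex II, 0.057 for complex III, -0.031 for complex IV and -0.014 for ATP synthase, at + 7 h 0.186, with 0.212, 0.213 and 0.177 for complexes III and IV and ATP synthase, and at + 10 h 0.002, with -0.034, 0.076 and -0.011 for the same. Quantile normalization gave -0.117 for complex II and 0.028 for complex III at + 4 h, and at + 10 h 0.031 for the members, -0.001 for complex III, 0.101 for complex IV and 0.004 for ATP synthase. Leaving out a library moved the member median between 0.034 and 0.333 at + 4 h, 0.31 and 0.69 at + 7 h, and -0.065 and 0.004 at + 10 h. For complex II the ranges were -0.054 to 0.134, -0.16 to 0.288 and -0.198 to -0.06, for complex III 0.127 to 0.34, 0.282 to 0.859 and -0.089 to -0.04, for complex IV -0.005 to 0.346, 0.476 to 0.947 and -0.02 to 0.042, and for ATP synthase 0.034 to 0.338, 0.251 to 0.61 and -0.11 to -0.027.

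Same-numbered libraries of a time deviated together with correlations of -0.0147, 0.0887 and 0.139 at + 4 h, + 7 h and + 10 h, so the numbers were not taken to pair the pools. With the replicate block limma called 19 members at + 7 h, where 18.5% of all genes were called, 2 for control + 10 h against + 4 h, where 4.95% were, and 0 in the other comparisons.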
